A study of Homo sapiens with 2 samples.

Results

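ACTN4 and IRF2BP2 are the sites of 2 of the longest runs of PROX1 peaks in SW480R cells. With peaks joined within 10 kb, the run at ACTN4 lies inside the gene while that at IRF2BP2 lies mostly around it. Binding was measured by ChIP-seq, in which DNA bound to a protein is pulled down with an antibody and sequenced. SW480R was derived as a subpopulation from the colorectal adenocarcinoma cell line SW480. Peaks were taken when their centre fell in a window of 283 kb on chromosome 19 around ACTN4 or of 212 kb on chromosome 1 around IRF2BP2, which reach about 100 kb beyond each gene. Of 23450 peaks in the deposited list, 44 were taken, 21 at ACTN4 and 23 at IRF2BP2. The windows were chosen because earlier work on this list had found long runs of peaks there, so the number, position, spacing and strength of the peaks are given as a description, with no test.

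The study holds 1 library of chromatin immunoprecipitated with a goat antibody against human PROX1, pooled from 3 independent immunoprecipitations, and 1 library of input DNA, which was not immunoprecipitated. Both came from SW480R cells in standard culture medium with no treatment named, and there is no other line, genotype or condition, so no difference between conditions and no spread between replicates could be measured. The list gives each peak its ChIP tags (mapped reads), its fold over input and a p-value, all the authors' own. No file of the input library was used on its own, and total library depths were not known.

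PROX1 is a homeodomain transcription factor, related to Drosophila Prospero, that binds DNA and can activate or repress its targets. It directs the development of lymphatic vessels, liver and lens, and in the intestine it is a target of Wnt signalling that is raised in part of colorectal tumours. ACTN4 encodes alpha-actinin-4, a protein that cross-links actin filaments at cell edges and adhesions, takes part in cell movement, and is mutated in an inherited kidney disease of podocytes. IRF2BP2 encodes a nuclear zinc-finger and RING-finger protein that was found as a partner of interferon regulatory factor 2 and acts mainly as a corepressor of transcription. ACTN4 is a long gene and IRF2BP2 a short one, so the same number of peaks covers them differently.

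No listed peak fell on the hg18 start used here for either gene. Sequences just before the RefSeq starts are shown as background on both genes. They are the 250 bases before the start in RefSeq (GRCh38.p14), printed 5′ to 3′ on the gene's strand, with the GC box GGGCGG or its reverse complement CCGCCC in capitals. The genome build differs from that of the peaks (hg18), so the peaks were not placed on these sequences. RefSeq also lists a second start for each gene in that build, 46.5 kb downstream of the first at ACTN4 and 0.653 kb downstream at IRF2BP2. The sequence before the second IRF2BP2 start is not printed.
ACTN4 first start, chr19:38647399-38647648, plus strand: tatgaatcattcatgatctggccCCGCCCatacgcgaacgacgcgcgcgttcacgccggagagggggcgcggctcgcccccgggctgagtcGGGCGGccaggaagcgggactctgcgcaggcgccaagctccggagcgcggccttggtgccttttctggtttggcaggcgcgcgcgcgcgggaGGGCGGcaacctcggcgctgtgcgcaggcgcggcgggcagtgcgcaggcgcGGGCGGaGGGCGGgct
ACTN4 second start, chr19:38693871-38694120, plus strand: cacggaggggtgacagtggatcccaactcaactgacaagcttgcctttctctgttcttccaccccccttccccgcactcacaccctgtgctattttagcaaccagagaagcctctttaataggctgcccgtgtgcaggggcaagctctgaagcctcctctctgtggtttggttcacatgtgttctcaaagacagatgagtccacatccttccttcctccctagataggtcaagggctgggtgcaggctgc
IRF2BP2 first start, chr1:234610179-234610428, minus strand: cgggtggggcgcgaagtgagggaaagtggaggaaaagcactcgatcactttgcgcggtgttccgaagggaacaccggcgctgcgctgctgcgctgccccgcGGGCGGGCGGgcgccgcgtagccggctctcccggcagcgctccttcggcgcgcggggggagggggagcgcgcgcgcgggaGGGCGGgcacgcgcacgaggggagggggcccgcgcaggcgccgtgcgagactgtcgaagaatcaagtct

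The first starts of both genes were rich in CpG pairs, and the second start was rich in them at IRF2BP2 but not at ACTN4. The sequence before the first ACTN4 start holds 40 CpG pairs, 74.4% G or C and 5 GC boxes. That before the first IRF2BP2 start also holds 40 CpG pairs and 74.4% G or C, with 3 GC boxes, of which a pair overlaps. The sequence before the second ACTN4 start holds 3 CpG pairs, 54.4% G or C and 0 GC boxes, and that before the second IRF2BP2 start 43, 84.8% and 4. Among 35116 RefSeq promoters of the same 250 bases, the median was 11 CpG pairs, 97.8% had fewer than 40, and 42.6% held at least 1 GC box on either strand. These letters describe the sequence only.

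ACTN4 carried 18 peaks inside the gene, and 17 of them lay nearer its start than its end. The gene lies at about chr19:43830200-43913000 of hg18 on the plus strand. Its bounds are known here to about 0.1 kb, and distances below run from its start to the centre of a peak in the direction of transcription. Exons and introns were not assigned, since no hg18 annotation was used here. With the gene divided into 4 equal parts of 20.7 kb, 12 of the 18 peaks lay in the first part with 710 tags, 5 in the second with 429 tags, 1 in the third with 142 tags and 0 in the last. No peak was listed in the first 5.5 kb of ACTN4 or in its last 36.9 kb. The list holds only peaks past the authors' threshold, so a stretch without a peak is not a stretch without signal.

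**Figure D1:**
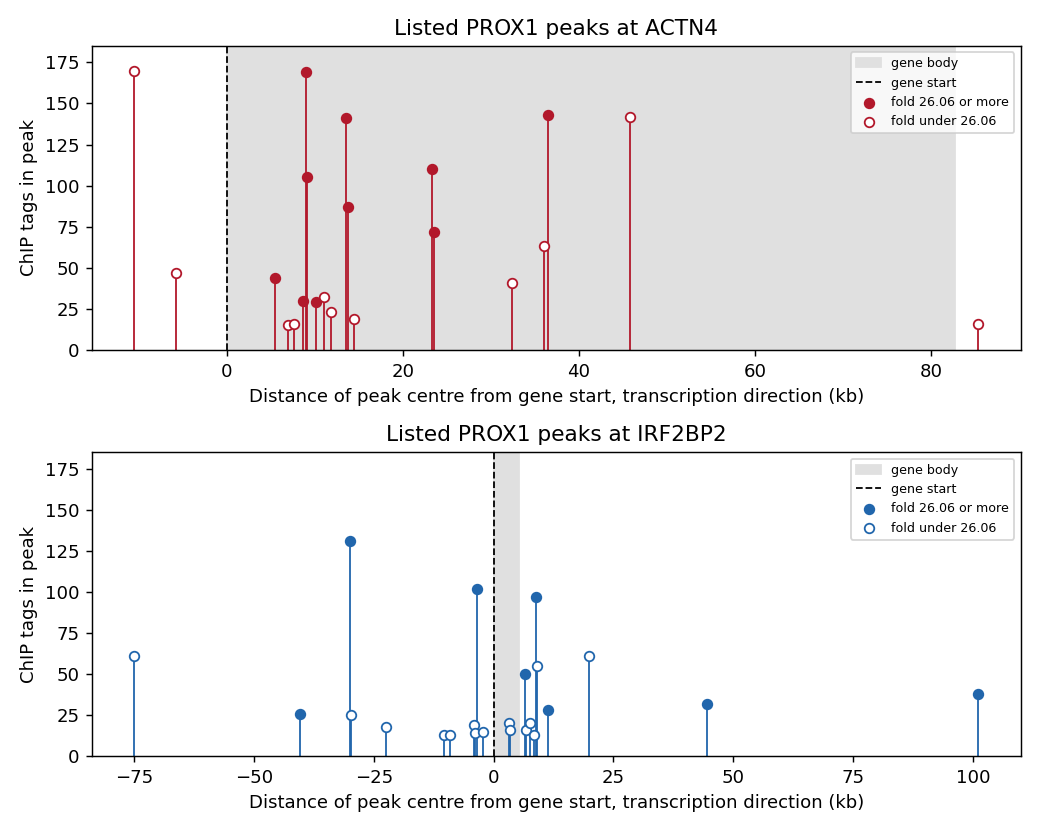
ChIP tags in each listed PROX1 peak against the distance of its centre from the gene start in kb, for the 21 peaks of the ACTN4 window and the 23 of the IRF2BP2 window. Filled points have a fold of 26.06 or more, and grey marks the gene body: 18 ACTN4 peaks stand on grey (82.8 kb), against 2 for IRF2BP2 (5.3 kb).

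The 5′ group of ACTN4 began at 5.5 kb with a peak of 44 tags and a fold of 44.11. From 7.0 to 11.9 kb followed 8 peaks, each within 1 kb of the next, with 419 tags together. The first members of this group held few tags, with 15 tags (fold 13.03, the lowest fold in the list) at 7.0 kb, 16 tags (fold 16.04) at 7.6 kb and 30 tags (fold 30.07) at 8.7 kb. Its centre was the strongest place in the gene: the peak at 9.0 kb (chr19:43839131-43839171) held 169 tags at a fold of 169.42 and ranked 34 by fold among all 23450 peaks. A neighbour starting 100 bp further on held 105 tags at a fold of 47.62. The group then fell away, with 29 tags (fold 26.06) at 10.1 kb, 32 tags (fold 16.04) at 11.0 kb and 23 tags (fold 14.03) at 11.8 kb. Most tags of the group therefore came from the 2 adjacent peaks near 9 kb.

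A second group of 3 peaks lay from 13.5 to 14.6 kb in ACTN4 and held 247 tags. It opened with 141 tags (fold 29.57) and, 140 bp further on, 87 tags (fold 87.22), and closed with 19 tags (fold 19.05) at 14.5 kb. Here the neighbour with fewer tags had the higher fold.

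Further into ACTN4 the peaks were sparser but not weaker in tags. A close pair at 23.3 and 23.5 kb, 120 bp apart, held 110 tags (fold 55.14) and 72 tags (fold 36.09). A single peak of 41 tags (fold 18.04) stood at 32.4 kb. At 36.1 and 36.5 kb lay 63 tags (fold 15.79) and 143 tags (fold 143.36), and the second of these (chr19:43866631-43866771) ranked 69 by fold in the list. The run ended at 45.8 kb with a lone peak of 142 tags and a fold of 14.24, 9.2 kb from its nearest neighbour. The second ACTN4 start lies 46.5 kb from the first in GRCh38. How far this peak lies from it was not measured, since the builds differ.

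Outside ACTN4 the window held 3 peaks in 200.2 kb, or 0.15 per 10 kb, against 2.17 inside the gene. No density over the whole genome was set beside these values. Upstream of the start, 2 peaks were listed, with 170 tags (fold 18.94) at 10.5 kb and 47 tags (fold 22.05) at 5.8 kb before the start. Downstream, 1 peak of 16 tags (fold 16.04) lay 2.6 kb past the end of the gene. No other peak was listed in the 89.7 kb below or the 97.3 kb above these in the window. In GRCh38 the nearest protein-coding neighbours are EIF3K, a subunit of a translation initiation factor, before ACTN4, and CAPN12, a calpain protease, after it. The peaks outside the gene were not assigned to either. The nearest listed peaks beyond the window were 211.1 kb (46 tags) and 248.4 kb (14 tags) outside its bounds.

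Equal tags stood beside very unequal folds at ACTN4. The upstream peak of 170 tags had a fold of 18.94 and the peak of 169 tags inside the gene one of 169.42. In the same way, 142 tags at 45.8 kb gave a fold of 14.24 and 143 tags at 36.5 kb one of 143.36. Read from the values, the fold of most peaks is the tag count times a constant divided by a whole number of input tags. The input behind such a peak can be inferred from the list. It came to 9 for the upstream peak and 10 for that at 45.8 kb, against 1, the lowest value, for both high-fold peaks. That lowest value may stand for 0 or 1 input tags. Inferred input was 9 or more in 0.905% of nuclear peaks.

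**Figure D2:**
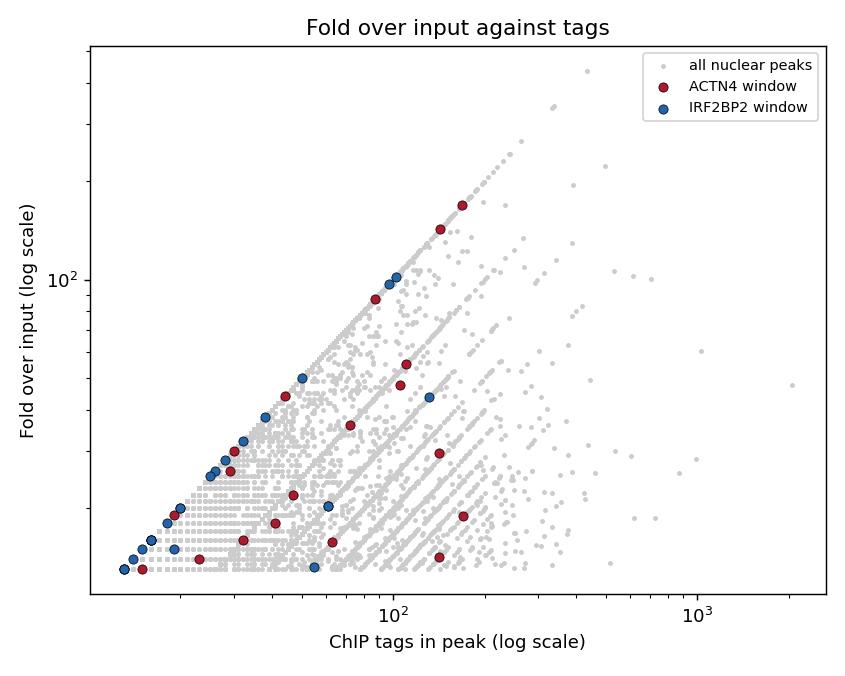
Fold over input against ChIP tags for all 23417 nuclear peaks (grey) and for the ACTN4 and IRF2BP2 windows, both axes on log scales. Peaks on the upper diagonal have the lowest inferred input, and the ACTN4 peaks of 142 and 170 tags lie far below it at folds of 14.24 and 18.94.

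Inferred input above the lowest value was found in both windows. It reached 1.5 in 11 of 21 peaks around ACTN4 and in 4 of 23 around IRF2BP2, beside 24.1% of all nuclear peaks. These counts and this share are approximate, since they include values that are not whole, such as 1.64, 2.14 and 2.28 at ACTN4. The inferred value was a whole number, within 0.02, for 14 ACTN4 and 21 IRF2BP2 peaks. The other 7 and 2 peaks were all 100 bp or wider, and their folds did not follow from all their tags and a whole input. One example is the ACTN4 peak of 15 tags with a fold of 13.03. For these peaks the inferred input is an approximation and may be too high. The part of input tags in the differences between peaks was not tested.

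Most peaks of the IRF2BP2 window lay around this short gene rather than inside it. The gene lies at about chr1:232806600-232811900 of hg18 on the minus strand, and spans 5.3 kb. Inside it, 2 weak peaks were listed, with 20 tags (fold 20.05) at 3.2 kb and 16 tags (fold 16.04) at 3.5 kb from the start. Per length this was 3.77 peaks per 10 kb, against 1.02 in the rest of its window and 2.17 inside ACTN4. The longest run, which spans the gene, was denser, with 5.27 peaks per 10 kb. It held 18.2 tags per kb, against 6.79 inside the gene. The value inside the gene rests on 2 peaks 220 bp apart, so it is only a rough density. The other 21 peaks of the window lay outside, 11 upstream of the start with 437 tags and 10 downstream of the gene's end with 410 tags. The longest run, of 16 peaks, spanned the gene: 8 of its peaks and 61.6% of its 552 tags lay past the gene's end, 6 peaks and 31.9% upstream, and 2 peaks and 6.52% inside.

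Upstream of IRF2BP2, the 6 peaks of the run comprised 1 of 102 tags and 5 of 13 to 19 tags. The nearest peak to the start lay 2.2 kb before it and held 15 tags (fold 15.04). At 3.4 kb before the start (chr1:232815231-232815411) a peak of 180 bp held 102 tags at a fold of 102.25, rank 206 in the list. Its neighbours at 3.8 and 4.0 kb held 14 tags (fold 14.03) and 19 tags (fold 15.04). The last 2 peaks of the run, at 9.0 and 10.4 kb before the start, each held 13 tags at a fold of 13.03, which are the lowest tag count and the lowest fold of any listed peak.

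Past the end of IRF2BP2 lay the largest group of the run joined within 1 kb, with 6 peaks and 251 tags in 2640 bp. Nearest to the gene were 50 tags (fold 50.12) at 1.3 kb and 16 tags (fold 16.04) at 1.4 kb past the end, 100 bp apart. Then came 20 tags (fold 20.05) at 2.4 kb and 13 tags (fold 13.03) at 3.1 kb. The strongest, at 3.5 kb past the end (chr1:232803031-232803191), held 97 tags at a fold of 97.24 and ranked 248 by fold. A peak 220 bp beyond it held 55 tags at a fold of only 13.28, with an inferred input of about 4.15. Further out the run closed with 28 tags (fold 28.07) at 6.1 kb and 61 tags (fold 20.38) at 14.6 kb past the end.

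**Figure D3:**
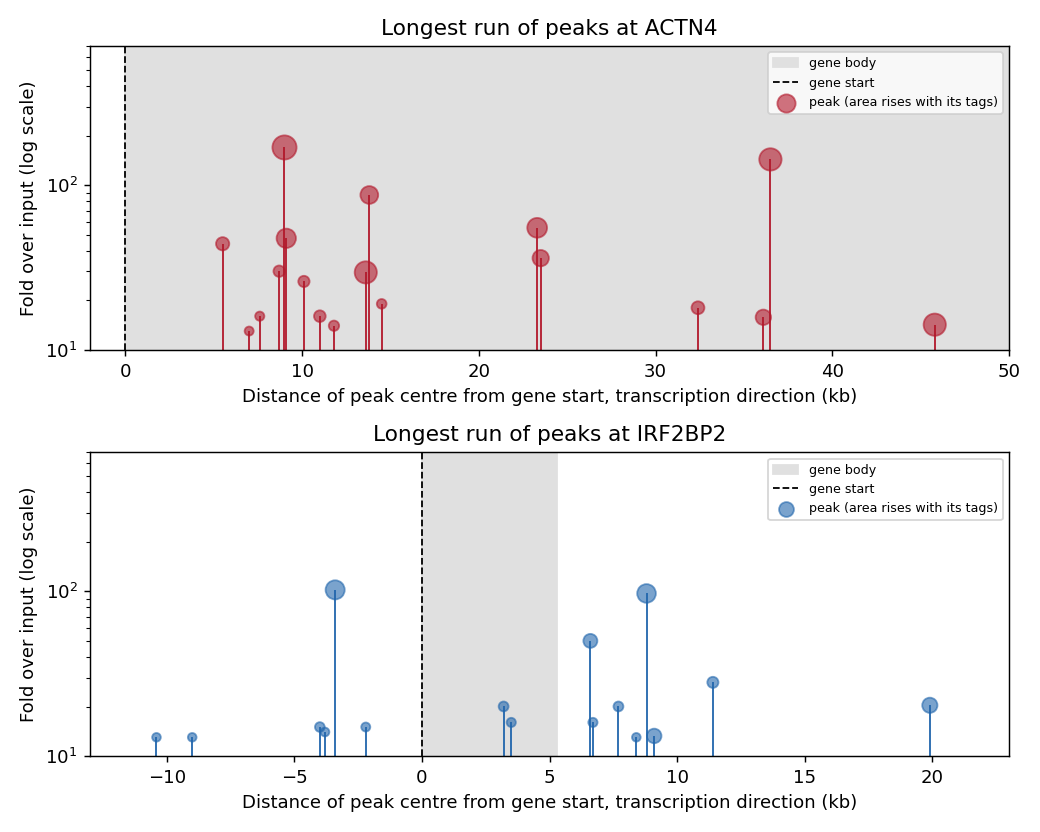
Fold over input (log scale) against distance from the gene start in kb for the 18 peaks of the ACTN4 run and the 16 of the IRF2BP2 run, with point area rising with tags. The highest folds are 169.42 and 143.36 inside ACTN4, and 102.25 and 97.24 on opposite sides of IRF2BP2.

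Beyond its run, the IRF2BP2 window held 7 scattered peaks with 331 tags. The peak with the most tags in the window was among them, 29.9 kb upstream of the start (chr1:232841671-232841851), with 131 tags, a fold of 43.78 and a width of 180 bp. It stood 100 bp from a peak of 25 tags (fold 25.06). The other upstream peaks held 18 tags (fold 18.04) at 22.4 kb, 26 tags (fold 26.06) at 40.4 kb and 61 tags (fold 20.38) at 74.9 kb before the start. Downstream, 32 tags (fold 32.08) and 38 tags (fold 38.09) lay 39.3 and 95.8 kb past the gene's end, where the list was otherwise empty. In GRCh38 the neighbours of IRF2BP2 within a few genes are mostly long non-coding RNAs, such as LINC00184 and LINC01354, with TARBP1, an RNA-binding protein gene, further on the lower side. Outside the window, the nearest listed peaks were 503.7 kb (18 tags) below and 14.2 kb (73 tags) above its bounds.

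Spacing in both runs was within the range of other long runs, and their median tags per peak differed. A run joins peaks whose edges lie within 10 kb of each other. At ACTN4 its 18 peaks spanned 40.44 kb (4.45 peaks per 10 kb), and at IRF2BP2 its 16 peaks spanned 30.36 kb (5.27 per 10 kb). The median gap between neighbouring peaks was 0.80 kb (range 100 bp to 9.20 kb) at ACTN4 and 0.98 kb (100 bp to 8.50 kb) at IRF2BP2. Over all 42 runs of 10 or more peaks the median gap was 0.97 kb. By peaks per 10 kb (median 5.22), 26 of these runs were denser than that at ACTN4 and 20 than that at IRF2BP2. Gaps under 1 kb made up 11 of 17 at ACTN4 and 8 of 15 at IRF2BP2, beside 50.2% of the 502 gaps in the long runs. The median peak held 53.5 tags in the ACTN4 run (range 15 to 169) and 19.5 in the IRF2BP2 run (13 to 102), and the ranges overlapped over most of their length. Between these 2 runs, only ACTN4 lay above the median of 25 tags over all nuclear peaks.

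Among the 42 runs, the ACTN4 run was long in peaks and high in tags, and the IRF2BP2 run was long in peaks, near the middle in total tags and low in tags per peak. More peaks were held by 3 runs than by that at ACTN4 and by 4 than by that at IRF2BP2, out of a range of 10 to 41. The ACTN4 run held 1281 tags, and 5 runs held more. The IRF2BP2 run held 552 tags, close to the median of 554.5. By median tags per peak, 2 runs were higher than the ACTN4 run, and the run at chr21:36214651-36227051 had the same 53.5. The IRF2BP2 run had 40 runs above it, and its 19.5 was the lowest value and was shared with 1 other run. Long runs were chosen on number of peaks, so these places are a description.

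**Figure D4:**
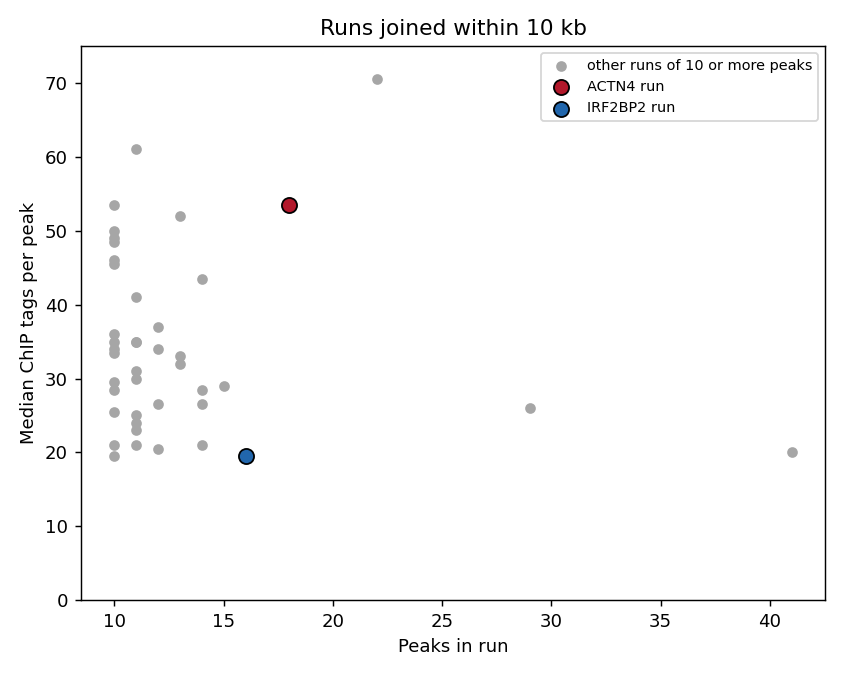
Median ChIP tags per peak against the number of peaks for the 42 runs of 10 or more peaks joined within 10 kb. The ACTN4 run (18 peaks, 53.5 tags) sits high and the IRF2BP2 run (16 peaks, 19.5 tags) at the lower edge.

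Strong peaks, at 26.06-fold or more (2 times the lowest fold), made up 30.3% of all nuclear peaks. They were 10 of the 18 peaks inside ACTN4 (55.6%, exact 95% binomial interval 30.8 to 78.5) and 0 of the 3 outside it. In the IRF2BP2 window they were 8 of 23 (34.8%, 16.4 to 57.3), 4 in the run and 4 beyond it, and 0 of the 2 inside the gene. Folds above 100 belonged to 2 peaks in ACTN4 and 1 near IRF2BP2, with 0.961% of nuclear peaks at 100 or more. Tag counts of 100 or more were found in 7 and 2 peaks of the 2 windows, beside 5.5% of nuclear peaks. Fold and tags come from the same comparison that chose the windows, so nothing is read from these shares. The intervals cover counting error only and treat neighbouring peaks as independent, and reads without molecular identifiers are not independent molecules.

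Close neighbours were common in both windows, which were chosen for their long runs, so nothing is read from the shares below. Whether close neighbours are distinct binding sites was not tested. A neighbour within 1 kb was listed for 15 of the 21 peaks of the ACTN4 window, all 15 inside the gene, and for 13 of the 23 of the IRF2BP2 window, beside 33.1% of nuclear peaks. With peaks within 1 kb joined, the ACTN4 run held 7 places and the IRF2BP2 run 8. Peaks of 80 bp or wider numbered 11 of 21 in the ACTN4 window and 6 of 23 in the IRF2BP2 window, beside 27.9% of nuclear peaks. The widest were 160 bp at ACTN4 (29 tags at 10.1 kb) and 180 bp at IRF2BP2. Tags were unevenly shared in both runs: the 3 fullest peaks held 35.4% of the tags of the ACTN4 run and 47.1% of those of the IRF2BP2 run.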

How the data were processed

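The PROX1 and input libraries enter through the authors' peak list on hg18, per the submitters' processing notes. Aligner, peak caller and threshold were not given in the sources used here. With no header, columns were identified by their contents. The tag counts that the authors deposited are whole and not normalized (13 or more). The deposited fold, at 13.03 or more, was read from its values as a ratio of ChIP to input tags, which did not hold exactly for every peak. The deposited p-value, at most 0.00099, may be a p- or q-value. Coordinates are printed as listed, and the base from which starts are counted is unknown.

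Peaks were assigned by their centre. Input was inferred as tags times 1.0025 divided by fold, which was whole (within 0.02) in 91.6% of peaks. The 33 mitochondrial peaks were left out of background shares. Run joining and input inference were run on simulated data made with the same formula and with well-separated runs. That checks the code only, and cannot show whether the formula holds for the list. Windows, lists and settings were chosen with earlier results of these data known. All peaks of both windows are named, which is wider than the rule written for named items: those inside a gene or up to 10 kb upstream, and elsewhere the most tags, highest fold, greatest width and run ends. Alternatives were a stricter threshold, joining close peaks, any overlap, other joining distances and strength by tags. Python 3.11.15, pandas 2.3.3, numpy 2.4.6, scipy 1.17.1 and matplotlib 3.10.9 were used.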

Additional observations from a re-analysis of the deposited data

How the results depend on the processing

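The number of peaks depended on the threshold and on joining close peaks. The better-ranked 11725 peaks reached down to a fold of 19.05, where tied peaks were split. The ACTN4 peak of 19 tags at 14.5 kb, also at 19.05, was left out by this cut. Among the 11725, 10 peaks lay inside ACTN4 and 1 inside IRF2BP2, with 11 and 13 in their windows. The longest runs held 9 and 7. With peaks within 1 kb joined, ACTN4 held 7 places and IRF2BP2 1, the windows 10 and 14, and the median gap within the runs was 6160 and 3040 bp. In the better-ranked peaks this gap was 820 bp at ACTN4 and 2910 bp at IRF2BP2. With runs joined within 5 kb, the longest at IRF2BP2 held 9 peaks and that at ACTN4 12. The IRF2BP2 run then no longer crossed the gene start. It left out the 6 upstream peaks of the 10 kb run, among them that of 102 tags. Joined within 20 kb, the longest run at each gene held 20 peaks, and that at ACTN4 then crossed the gene start to take in the 2 upstream peaks. Taking any overlap in place of the centre changed none of the 4 counts of peaks in genes and windows. Taking as strong the same number of nuclear peaks with the most tags, chosen after seeing the data, gave 61.9% of the ACTN4 window against 47.6% by fold, and 34.8% of the IRF2BP2 window by both. No paired analysis was possible because there is 1 library of each kind and no test. The list gives no depth outside peaks, which limits what can be said of the stretches without a peak.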
